A study of Zea mays with 24 samples.

Results

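Auxin is moved from cell to cell by PIN proteins, efflux carriers whose placement in the plasma membrane sets the direction of flow, and its local build-up marks the sites where new plant organs arise. In maize, mutants of spi1 and bif2 are known for branches and flowers that fail to form on the inflorescence. Described here are 8 genes chosen by their identifiers, out of 109715 identifiers measured. PIN1a (GRMZM2G098643), PIN1b (GRMZM2G074267), PIN1c (GRMZM2G149184) and PIN1d (GRMZM2G171702) encode plasma membrane efflux carriers. PIN5a (GRMZM2G025742) and PIN5c (GRMZM2G040911) belong to the short PINs, which in Arabidopsis act at the endoplasmic reticulum. The gene spi1 (sparse inflorescence1, GRMZM2G025222) encodes a YUCCA-like flavin monooxygenase of auxin synthesis. The gene bif2 (barren inflorescence2, GRMZM2G171822) encodes a kinase related to PINOID of Arabidopsis, which acts on PIN proteins. All of them were measured in the deposited tables, and each had at least 1 count in some library.

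Polyadenylated RNA came from laser-microdissected leaf primordia of maize labelled as cultivar B73, in 24 libraries that form 8 groups of 3, each library pooling 5 to 6 plants. Wild-type P7 primordia (the seventh youngest leaf) gave the ligule piece, a rectangle 100 µm high on the preligule band from which the ligule grows, and blade and sheath pieces 50 µm above and below it. Each region was taken through all cell layers (replicates 3 to 5) and as the adaxial L1 alone, which is the upper epidermis of the leaf (replicates 1 to 3). P6 primordia, the next younger leaf, gave tissue 400 to 900 µm from the base in plants labelled lg1-R, which carry a mutant allele of the ligule gene lg1, and in their wild-type siblings. The study set out to find genes of blade-sheath patterning and genes downstream of LG1. Libraries held between 3818649 and 52731783 counts in total, and the shallowest was ligule replicate 2 of the adaxial L1.

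The labels were checked against marker genes. The ligule gene lg1 lay between 1.76 and 16.2 CPM in the ligule of all layers and between 10.2 and 19.2 CPM in the ligule of the adaxial L1, above every blade and sheath library, where it did not exceed 0.666 CPM. The summed level of 4 epidermal HD-ZIP IV genes (ocl1, ocl3, ocl4 and ocl5) lay between 1030 and 3170 CPM in the adaxial L1, against 415 to 694 CPM in all layers of P7. The inner-tissue markers BM1, a lignin gene, and sut1, a sucrose transporter gene, had no counts in the ligule and sheath of the adaxial L1. In the blade of the adaxial L1 their sum stayed between 0.138 and 2.67 CPM, against 25.8 to 165 CPM in all layers of P7. There sut1 itself did not exceed 3.36 CPM and was at 0 in some blade and sheath libraries, so this check rests mostly on BM1. The list of inner-tissue markers also held rld1, which did not follow BM1 and sut1. It stood at 211 to 349 CPM in the adaxial L1 and at 183 to 238 CPM in all layers of P7. Whether rld1 is confined to inner tissue was not tested, so its level is not taken as a measure of inner tissue. In P6, lg1 stood at 0.635, 2.17 and 1.29 CPM in wild type and at 2.36, 2.08 and 2.87 CPM in the libraries labelled lg1-R, so its transcript was not lower there, and whether this allele removes it is not given in the sources used here. Blade replicate 2 (mean correlation of 0.914 with its group) and ligule replicate 1 (0.894) of the adaxial L1 and sheath replicate 4 of all layers (0.93) had the lowest correlation within their groups, and results that rest on them are given without them. The sheath libraries of the adaxial L1 were low as a group, at 0.901, 0.903 and 0.909.

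Levels are CPM, counts scaled to the TMM-normalised library size, given as mean ± SD over 3 libraries, and FPKM is used where genes are compared with each other, because it accounts for gene length. In the blade of all layers PIN1d stood at 56.4 FPKM, PIN1a at 34.3, PIN1b at 13.2 and PIN1c at 0.58, while spi1 stood at 1.33. How reads that match several similar genes were counted is not given in the sources used here, so levels of closely related members are uncertain to that extent. PIN5a had a single count in all libraries, in ligule replicate 3 of the adaxial L1, and bif2 had 2 counts, both in the blade of all layers. A second identifier of the PIN5a locus (GRMZM2G175983) had 0 counts. These 2 genes could not be tested. By counting error alone, a count of 0 allows a level of up to 0.0491 to 0.806 CPM, depending on the depth of the library, so low levels of both stay below what was detectable.

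**Figure D1:**
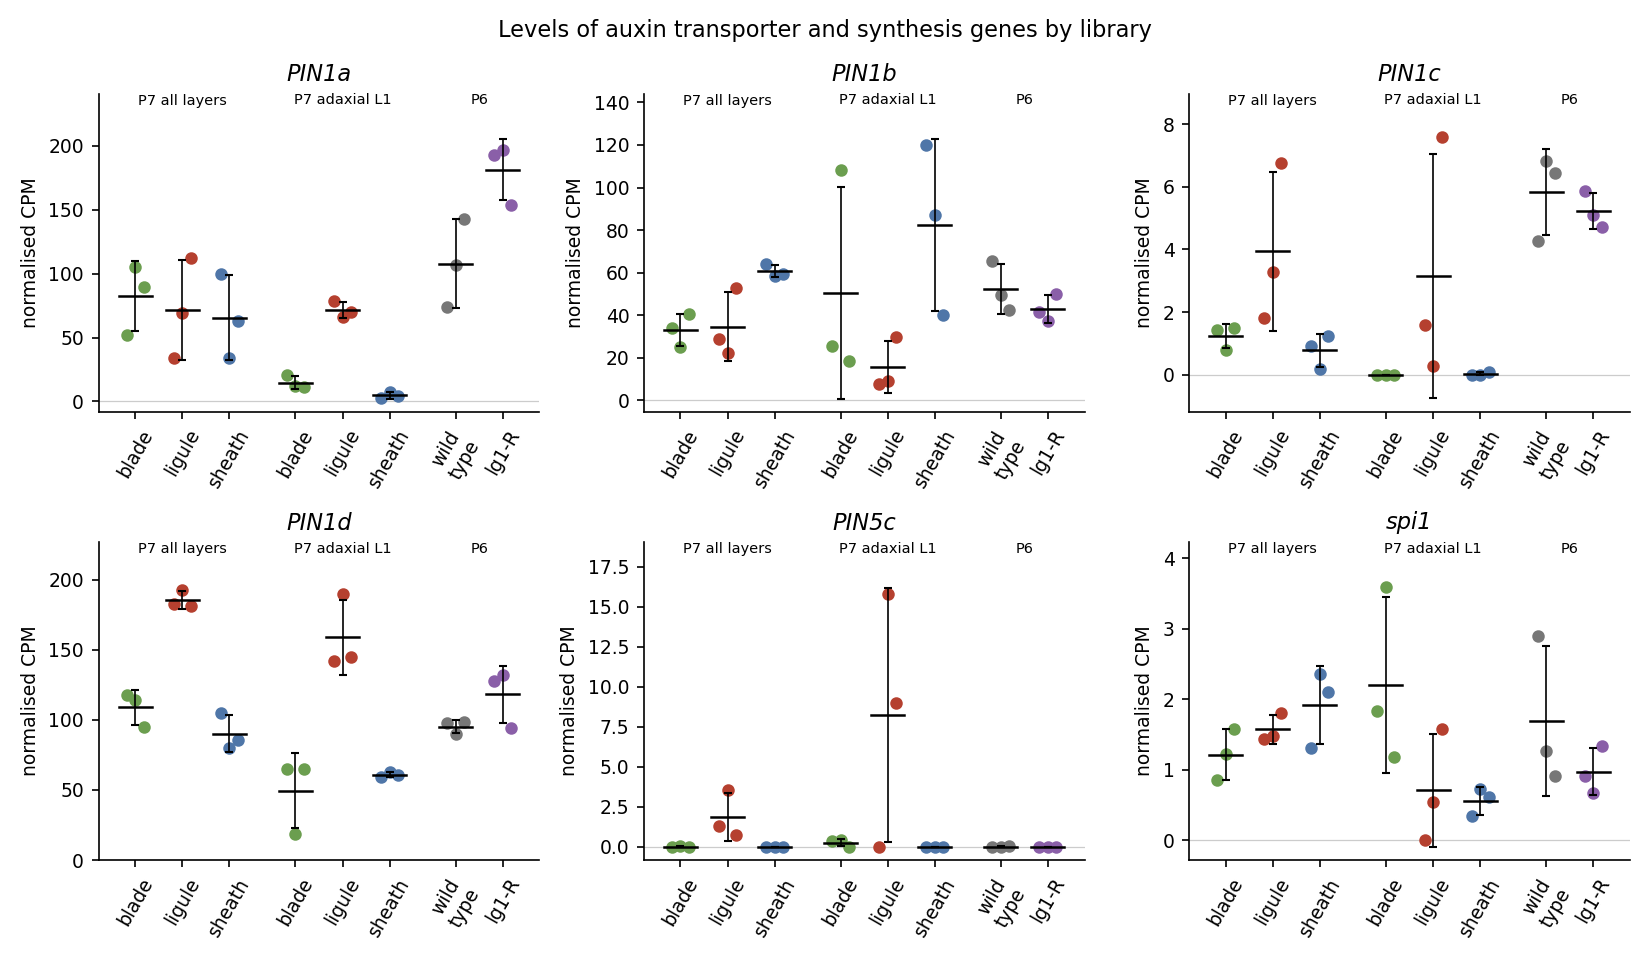
Normalised CPM (y axis) of 6 genes in each of 24 libraries, by region, cell layers and genotype (x axis). Points are libraries, the horizontal bar is the mean and the whisker the SD of 3 libraries. PIN1a in the adaxial L1 reached 66.1 to 78.5 CPM in the ligule and at most 20.5 CPM elsewhere, PIN1d was high in both ligule groups, and PIN5c was near 0 outside the ligule.

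PIN1a, the efflux carrier gene related to the one that marks organ initiation in Arabidopsis, set the ligule apart in the epidermis. There it stood at 78.5, 66.1 and 70.3 CPM in the 3 ligule libraries. The blade libraries held 20.5, 12.4 and 11.1 CPM and the sheath libraries 2.73, 7.56 and 3.95 CPM. All ligule libraries lay above all others, and the blade libraries lay above the sheath libraries without overlap. By the quasi-likelihood test of edgeR, with p-values adjusted over all genes (Benjamini-Hochberg, threshold 0.05), PIN1a was 5.09-fold higher in the ligule than in the blade (log2 fold change 2.35, SE 0.40, adjusted p = 0.00264). It was 15-fold higher than in the sheath (3.91, SE 0.43, adjusted p = 0.000183), and both differences were called in each of 17 alternative settings, every library left out in turn among them. Blade against sheath missed the threshold (1.56, SE 0.40, adjusted p = 0.0711), but was called in 4 of 17 alternatives, among them DESeq2 (adjusted p = 0.00506) and edgeR without sheath replicate 2 (2.09, adjusted p = 0.0273). The epidermal ocl genes moved the other way in these libraries, with a summed level of 1030 to 1300 CPM in the ligule against 2020 to 3170 in the blade and 1620 to 2570 in the sheath, and their part in the result was not tested. In pieces of tissue, more cells with the transcript and more transcript per cell cannot be told apart.

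Through all layers PIN1a showed no such pattern. The ligule libraries held 34.2, 69 and 112 CPM, the blade libraries 52, 105 and 89.8, and the sheath libraries 99.7, 33.7 and 63.2. The groups overlapped fully, and the spread within each group was wide. The log2 difference between the ligule and the mean of blade and sheath was -0.02 (SE 0.40, adjusted p = 0.991), and -0.17 without sheath replicate 4. The difference between the ligule effects of the adaxial L1 and of all layers was itself tested in a fit of the 18 P7 libraries. It came to 3.10 on the log2 scale for PIN1a (SE 0.54, adjusted p = 0.00206), and it was called in each of 26 alternative settings, with 2.76 to 3.58. Of the 6 members tested, PIN1a was the 1 called here, and 0.358% of all genes were called higher. PIN1c had a larger value of 5.74 (SE 1.56, edgeR adjusted p = 0.0631), called in 5 of 26 alternatives. That value rests on 0 and 1 counts in the blade and sheath of the adaxial L1. For PIN5c the difference could not be estimated (SE 318.3). The labels do not say whether the adaxial L1 and all-layers libraries were collected together, and they share a single replicate number, so cell layer and any difference in collection cannot be told apart.

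Set against all layers of the same region, PIN1a was 5.65-fold lower in the adaxial L1 of the blade (log2 fold change -2.50, SE 0.45, edgeR adjusted p = 0.00109; called in each of 25 alternatives, as in the sheath). In the sheath it was 13.5-fold lower (-3.76, SE 0.48, adjusted p = 2.84e-05). In the ligule the means were 71.6 ± 6.33 CPM in the adaxial L1 and 71.9 ± 39.2 CPM through all layers (-0.03, SE 0.42, adjusted p = 0.974). BM1 and sut1 were at 0 counts in all 3 ligule libraries of the adaxial L1, where PIN1a was high, but sut1 was low through all layers too. The level of rld1, which is not taken as a measure of inner tissue, was 240 to 349 CPM there. In the ligule of all layers rld1 stood at 183 to 238 CPM. The part of inner tissue in these values was not tested.

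Other members were compared between layers in the same way. PIN1d was lower in the adaxial L1 of the blade (-1.15, SE 0.31, edgeR adjusted p = 0.0198), a call lost without blade replicate 3 or 4 of all layers (adjusted p of up to 0.0606), and without blade replicate 2 of the adaxial L1 the difference was -0.79. PIN1c had 0 counts in the adaxial L1 of the blade and 127 through all layers there, a level at least 20.4-fold lower (adjusted p = 0.00945). In the sheath PIN1c had 1 count against 32 (adjusted p = 0.0589). So 3 of 6 members tested were called lower in the adaxial L1 of the blade (5.36% of all genes) and 1 of 6 in that of the sheath (8.64%). In the ligule edgeR called 0 of 6 in either direction (16.5% of all genes), with 0 at an unadjusted p below 0.05 and 0 called by DESeq2 or limma. The median log2 difference of all genes between the layers was -0.08 in the blade, -0.15 in the ligule and -0.09 in the sheath.

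**Figure D2:**
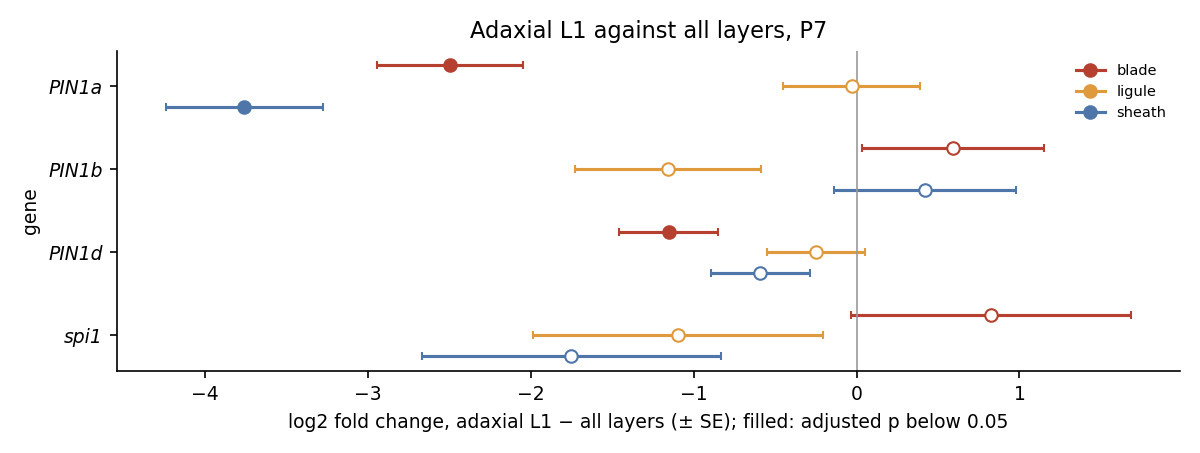
Log2 fold change of the adaxial L1 against all layers (x axis, ± SE) for 4 genes (y axis) in blade, ligule and sheath of P7 primordia, 3 libraries per group. Filled points passed an adjusted p of 0.05 in edgeR. PIN1a was far lower in the epidermis of blade (-2.50) and sheath (-3.76) but not of the ligule (-0.03).

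PIN1d, another plasma membrane efflux carrier gene, was higher in the ligule in both kinds of tissue. Through all layers the ligule libraries held 183, 193 and 181 CPM, the blade libraries 118, 114 and 94.7, and the sheath libraries 105, 79.8 and 86. The ligule libraries lay close together and above all others. Against the sheath the log2 fold change was 1.05 (SE 0.20, edgeR adjusted p = 0.0101), and without sheath replicate 5 the adjusted p was 0.0542. Against the blade it was 0.79 (SE 0.20, adjusted p = 0.0378), a call lost without any 1 of 7 libraries, namely each blade and each ligule library and sheath replicate 5 (0.69 to 0.84 over the libraries left out). With the replicate number as a block over all 9 libraries, it was 0.79 with an adjusted p of 0.0752, so the call was lost. Blade and ligule libraries of the same number ran alike here (correlations of deviations of 0.23 to 0.411), but the labels do not say what a number marks. Sheath replicates 3 and 4 ran against the libraries of their own number (correlations of deviations of -0.448 to -0.198). The blocked value therefore does not rest on blade and ligule libraries alone. The adaxial L1 libraries held PIN1d at 142, 190 and 145 CPM in the ligule, at 64.7, 18.5 and 64.8 in the blade and at 59, 62.7 and 60.7 in the sheath, again without overlap. The low blade value was that of replicate 2. The log2 fold change against the blade was 1.76 (SE 0.37, adjusted p = 0.0113), and the call was lost without ligule replicate 2 (adjusted p = 0.0564). Against the sheath it was 1.42 (SE 0.37, adjusted p = 0.038), which was not called without any 1 of the ligule or sheath libraries (adjusted p = 0.0746 to 0.143). Against the mean of both regions it was 1.58, and 1.38 (adjusted p = 0.000635) without blade replicate 2. The ligule effects of PIN1d in the adaxial L1 and in all layers were not shown to differ (0.62, SE 0.37, adjusted p = 0.559).

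PIN1b, also an efflux carrier gene, had its lowest mean in the ligule of the adaxial L1. There it stood at 7.92, 9.13 and 29.6 CPM, against 25.5, 108 and 18.5 in the blade and 120, 87.2 and 40 in the sheath. The ligule lay below the sheath without overlap, and overlapped the blade. Neither difference passed the threshold with edgeR, with -2.36 against the sheath (SE 0.69, adjusted p = 0.0611) and -1.64 against the blade (SE 0.68, adjusted p = 0.207). DESeq2 called the difference from the sheath (adjusted p = 0.0061), and so did edgeR without blade replicate 2 (adjusted p = 0.0152), while the value against the blade was then -0.44 (adjusted p = 0.843). Through all layers the sheath held 63.9, 58.6 and 59.4 CPM, above every ligule library (28.9, 22.4 and 52.8) and every blade library (33.8, 25.1 and 40.4). The ligule-sheath difference of -0.79 (SE 0.30, adjusted p = 0.272) and the blade-sheath difference of -0.88 (SE 0.30, adjusted p = 0.278) missed the threshold.

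PIN1c, an efflux carrier gene at a low level, was detected in the epidermis almost only in the ligule. In that layer it had 17, 1 and 154 counts in the ligule libraries, 0 in each blade library and 0, 0 and 1 in the sheath libraries. The ligule counts came mostly from replicate 3, and the value of replicate 2 lies under the limit of 3 counts. Over the summed libraries the ligule was at least 78.1-fold above the blade, against a floor of 3 counts over the blade libraries. Over the sheath the ratio was 160, with a 95% interval of 28.3 to 6350 that covers counting error only. PIN1c was below edgeR's filter in this set, and with no filter its adjusted p was 0.00405 against the blade and 0.0323 against the sheath. With limma on log2(FPKM + 1) and no filter they were 0.289 and 0.297. Through all layers PIN1c stood at 1.81, 3.27 and 6.75 CPM in the ligule, 1.43, 0.784 and 1.48 in the blade and 0.927, 0.169 and 1.22 in the sheath. The ligule libraries were all above the others, and PIN1c was called against the mean of both regions (2.05, SE 0.51, adjusted p = 0.0377). That call was lost without any 1 of 6 libraries (blade replicates 3, 4 and 5, ligule replicates 4 and 5, sheath replicate 3), and without ligule replicate 5 the value was 1.38 (adjusted p = 0.316). Without sheath replicate 4 it was 1.80 (adjusted p = 0.0235).

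PIN5c, the short PIN gene, was almost confined to the ligule pieces among these 24 libraries. Through all layers the ligule libraries had 57, 72 and 46 counts, or 1.32, 3.56 and 0.753 CPM. The other 6 all-layers libraries of P7 held a single count, in blade replicate 4, and all 6 libraries of P6 held 1 count, in wild type. Over the sheath PIN5c was at least 21.3-fold higher in the ligule, and over the blade the ratio was 138 (95% counting interval 24.5 to 5490), with edgeR adjusted p-values of 0.00978 and 0.00442. Both were called with each library left out in turn. Over all alternative settings the difference from the blade was called in 15 of 15 and that from the sheath in 13 of 15. In the fit of all 24 libraries the call against the sheath was lost. The ligule libraries of the adaxial L1 had 0, 59 and 182 counts, or 0, 15.8 and 8.98 CPM. The blade libraries had 10, 3 and 0 counts and the sheath libraries 0, so that over the sheath the ligule was at least 74.6-fold higher. Ligule replicate 1, in which PIN5c was not detected (0 counts, which allows up to 0.279 CPM by counting error alone), held lg1 at 19.2 CPM and PIN1a at 78.5 CPM, the highest of its group for both. That library also detected the fewest identifiers of the 24 (18460), and the part of this in the 0 was not tested. PIN5c was below the filter in the adaxial L1, and against the mean of blade and sheath its adjusted p was 9.25e-08 with no filter in edgeR, 0.0566 with DESeq2 and 0.161 with limma on log2(FPKM + 1).

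The auxin synthesis gene spi1 stayed at a low level in every group, between 0.558 ± 0.197 CPM in the sheath and 2.2 ± 1.25 CPM in the blade of the adaxial L1. Through all layers the ligule libraries held 1.43, 1.48 and 1.8 CPM, the blade libraries 0.847, 1.22 and 1.57, and the sheath libraries 1.3, 2.36 and 2.1. The groups overlapped, and the ligule differed from the mean of both regions by 0.07 (SE 0.37, adjusted p = 0.963). Within the adaxial L1 the ligule held 0, 0.537 and 1.58 CPM from 0, 2 and 32 counts, the blade 1.83, 3.59 and 1.18 and the sheath 0.341, 0.726 and 0.608. With so few counts the difference from the mean of both regions (-0.58, SE 1.16, adjusted p = 0.857) has a wide error.

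Set against the mean of blade and sheath through all layers, 3 of 6 members tested were called higher in the ligule (PIN1c, PIN1d and PIN5c) and 0 lower. Over all 22205 genes tested, 2.74% were called higher and 1.83% lower. The median log2 fold change was 0.49 over the 6 members and 0.03 over all genes. Against the blade alone 2 of 6 were higher (PIN1d and PIN5c; 2.74% of all genes), and against the sheath alone the same 2 (1.42% of all genes). The replicate block left 1 of these calls against the blade, that of PIN5c. For the adaxial L1, 2 of 4 members tested (PIN1a and PIN1d) were higher than the mean and 0 lower, against 2.95% and 4.78% of 18761 genes. The medians there were 0.50 and 0.00. Both genes were also called against the blade (2.25% of all genes higher) and against the sheath (2.13%). Members entered a fit only where enough libraries had counts, so these counts describe the tested members and not all 8. PIN5c entered the all-layers fit only through the ligule, with 175 counts there, 1 in the blade and 0 in the sheath. It could hardly have been called lower, so its part in the all-layers counts is no separate support.

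Between blade and sheath edgeR called 0 members through all layers (1.58% of all genes in either direction), with 1 member at an unadjusted p below 0.05 and 0 called by DESeq2 or limma. For the adaxial L1 edgeR called 0 of 4 (1.96% of all genes), with 1 at an unadjusted p below 0.05, 1 called by DESeq2 and 0 by limma.

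**Figure D3:**
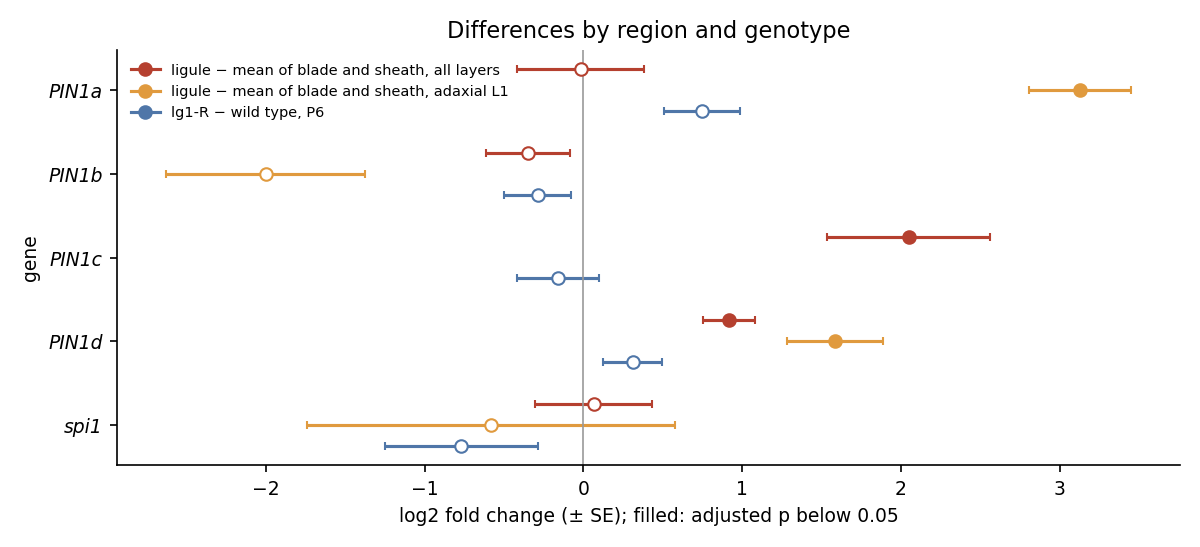
Log2 fold change (x axis, ± SE) of 5 genes (y axis) for the ligule against the mean of blade and sheath in all layers and in the adaxial L1, and for lg1-R against wild type in P6, 3 libraries per group. Filled points passed an adjusted p of 0.05 in edgeR. PIN1d was higher in both ligule comparisons, PIN1a in the adaxial L1 (3.13), and no gene was called in P6; PIN1c was not tested in the adaxial L1.

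In P6 primordia the question was whether these genes differ between lg1-R plants and their wild-type siblings. PIN1a stood at 73.9, 107 and 143 CPM in wild type and at 193, 197 and 154 CPM in the libraries labelled lg1-R. The groups did not overlap, and the log2 fold change was 0.75 (SE 0.24, unadjusted p = 0.00986), but with edgeR's adjustment over all genes p was 0.509. PIN1d stood at 97.6, 89.6 and 98.7 CPM against 128, 132 and 94.5 (0.31, SE 0.19, adjusted p = 0.852). PIN1b stood at 65.3, 49.4 and 42.3 CPM against 41.5, 37.2 and 49.9 (-0.29, SE 0.21, adjusted p = 0.88), and PIN1c at 4.28, 6.83 and 6.43 against 5.87, 5.1 and 4.72 (-0.16, SE 0.26, adjusted p = 0.947). The gene spi1 held 2.9, 1.27 and 0.904 CPM in wild type and 0.908, 0.671 and 1.33 in lg1-R (-0.77, SE 0.48, adjusted p = 0.859). Of the 5 members tested 0 were called by edgeR, DESeq2 or limma and 1, PIN1a, had an unadjusted p below 0.05. Only 1 of 21249 genes was called in this comparison by edgeR (0.00471%), against 150 by DESeq2.

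Across the 8 groups the order of the means differed from gene to gene. PIN1a was highest in the libraries labelled lg1-R (181 ± 23.7 CPM) and in P6 wild type (108 ± 34.7), followed by the blade, ligule and sheath of all layers and the ligule of the adaxial L1 (65.5 to 82.4 CPM), which overlapped each other. Both remaining adaxial L1 groups stood apart below, the blade at 14.7 ± 5.12 CPM and the sheath at 4.75 ± 2.51. For PIN1d both ligule groups came first, at 186 ± 6.26 CPM in all layers and 159 ± 26.9 in the adaxial L1, and their ranges overlapped each other and no lower group. The next 4 groups (118 to 90.2 CPM) overlapped their neighbours, and the adaxial L1 of sheath and blade came last at 60.8 ± 1.84 and 49.3 ± 26.7 CPM. For PIN1b and spi1 every group overlapped its neighbour in the order. PIN1c was highest in P6, at 5.85 ± 1.37 CPM in wild type and 5.23 ± 0.584 in lg1-R, and both P6 groups overlapped the ligule of all layers. P6 and P7 pieces differ in stage and in the region cut, and no test was made between them.

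Over the 24 libraries, the pair of members whose log2 CPM ran most alike was PIN1a and PIN1c (Pearson r = 0.847), and PIN1b ran against PIN1d (r = -0.567). Among 1838 to 1839 other genes with a symbol, those most like PIN1a were gln2 (r = 0.896), ugu1 (0.855) and HAK9 (0.848). For PIN1d they were a gene listed as methylase (0.807), EREB161 (0.797) and bZIP72 (0.794), and for PIN1b sbp21 (0.802), hdz10 (0.791) and gs (0.788). For PIN1c they were pck2 (0.903), PP2C4 (0.875) and PIN1a. For PIN5c they were the aquaporin gene TIP2-1 (0.871), the NAC boundary gene CUC2 (0.843) and the dehydrin gene dhn1 (0.827). For spi1 they were PSA2 (0.81), SOC1 (0.803) and SE1B (0.801). These values describe the 24 libraries, whose groups and depth are shared by all genes.

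Auxin acts on genes through auxin response factors (ARF) and the Aux/IAA proteins that hold them back. Beside the members, 52 genes were taken from gene names, among them 20 ARF and 13 Aux/IAA genes. Through all layers 3 of 37 tested rose in the ligule relative to the blade-sheath mean and 2 fell, where 2.74% of all genes were called higher and 1.83% lower, with a median log2 fold change of 0.43 against 0.03 over all genes. ARF17 rose to 64.2 ± 6.1 CPM, above the blade with 31.3 ± 6.36 and the sheath with 34.5 ± 1.46 (log2 fold change 0.97, SE 0.17, edgeR adjusted p = 0.00486). The level of ARF18 was 204 ± 66.5 CPM in the ligule, above the blade with 66.4 ± 28 and the sheath with 70.9 ± 30.6 (1.58, SE 0.31, adjusted p = 0.011), and the call was lost without ligule replicate 4. AUX10 was higher at 1.46 ± 0.695 CPM (adjusted p = 0.0221) and ARF12 lower at 23 ± 3.07 (adjusted p = 0.0437), but both calls were lost when single libraries were left out (any 1 of 5 for AUX10 and of 6 for ARF12). AUX32 was lower in the ligule, at 0.361 ± 0.0724 CPM where the blade held 1.4 ± 0.362 and the sheath 2.72 ± 0.784 (-2.42, SE 0.43, adjusted p = 0.0047).

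Within the adaxial L1, 5 of 28 tested genes of these lists were higher in the ligule and 3 lower, where 2.95% of all genes were called higher and 4.78% lower, with a median of 0.14 against 0.00 over all genes. ARF18 rose again, to 152 ± 60.8 CPM, above the blade with 37.5 ± 4.36 and the sheath with 61.3 ± 3.46 (log2 fold change 1.70, SE 0.23, edgeR adjusted p = 0.000509). ARF23 rose to 44.6 ± 18.7 CPM, above the blade with 3.02 ± 2.11 and the sheath with 12.1 ± 6.63 (2.92, SE 0.47, adjusted p = 0.00165). AUX15 rose from 0.132 ± 0.128 and 4.15 ± 4.98 to 13.7 ± 1.27 (4.14, SE 0.78, adjusted p = 0.00458). ARF3 was lower in the ligule, at 482 ± 93.3 CPM where the blade held 1260 ± 222 and the sheath 595 ± 65.6 (-0.80, SE 0.17, adjusted p = 0.0116), a call lost without ligule replicate 1. AUX27 fell to 12.8 ± 3.97 CPM, below the blade with 47 ± 3.95 and the sheath with 29.5 ± 13.4 (-1.50, SE 0.34, adjusted p = 0.0159), a call lost without ligule replicate 1 or 2. Yucca2, named as a YUCCA gene of auxin synthesis, had 286 counts in the sheath, 4 in the blade and 0 in the ligule (adjusted p = 0.0373), a call lost without any 1 of 6 libraries. Yucca2 entered this fit through the sheath and could hardly have been called higher in the ligule. Its part in the count of lower genes is therefore no separate support. In P6, 0 of 35 tested genes were called between lg1-R and wild type by edgeR or limma and 1 by DESeq2, and 4 had an unadjusted p below 0.05. Over all genes edgeR called 0.00471% (1 gene), limma on log2(FPKM + 1) 9 and DESeq2 150.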

How the data were processed

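The authors deposited per gene 1 table of estimated counts (expected counts) and 1 table of FPKM, with 109715 identifiers and 1 column per library. Tools named in the submitters' processing notes are TopHat2 2.0.10 and Cuffdiff 2.1.1, with no role for either. What genome build, annotation, strand setting and treatment of shared reads were used is not given in the sources used here. Per the labels' protocols, the RNA was amplified before library preparation, which can add to the spread. Of the deposited counts, 0.274% to 0.601% per library were not whole and all were rounded. Replicate pairs differed beyond counting error (chi-square per degree of freedom 12 to 152 over 24 pairs). The labels give 5 to 6 plants per library and do not say whether the plants were independent sets, so p-values measure the spread between these libraries.

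Tests used edgeR 4.0.16 (quasi-likelihood, robust, TMM, filterByExpr with a smallest count of 10 and total of 15) under R 4.3.3. P-values were adjusted over all genes tested (Benjamini-Hochberg, threshold 0.05). Separate fits held the 9 all-layers libraries, the 9 adaxial L1 libraries, the 6 P6 libraries and the 18 P7 libraries (tests between layers). For each gene the SE is |log2 fold change| / sqrt(F). CPM come from TMM factors over all 24 libraries. Floors (3 counts over a group) and 95% exact binomial intervals cover counting error only. Alternatives were DESeq2 1.42.0, RLE factors, no filter, limma 3.58.1 on log2(FPKM + 1) and log2(FPKM + 0.1), on FPKM of at least 1 in 3 libraries or unfiltered, which understates changes of low genes, a fit of all libraries, a replicate block and each library left out. Between blade and ligule of all layers, the deviations of same-numbered libraries correlate at 0.411, 0.346 and 0.23 and of others at -0.376 to 0.0797. The labels do not say what a number marks, so whether these libraries are pairs is not known. The scripts were tested on simulated data. Figures used matplotlib 3.10.9 in Python 3.11.15.

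The members and lists were chosen with earlier results of these data known. All members are named; of the auxin lists, up to 3 called genes per direction with the largest change; and for each member the 3 genes with a symbol and the highest Pearson r of log2 CPM. Gene names come from the RefSeq gene table for Zm-B73-REFERENCE-NAM-5.0, where 1 locus was found for 18259 identifiers and several for 519. It names neither PIN1b nor PIN1c, whose names come with the choice of members. The spelling Yucca was added to the synthesis list after names were seen, and 2 genes named aux1, a name of an influx carrier and of an Aux/IAA gene, were kept apart. Sequences are not used here.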

Additional observations from a re-analysis of the deposited data

Results flagged for a closer look

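PIN1a differed between the tissues in its ligule effect. The difference between the ligule and the mean of blade and sheath was 3.10 larger on the log2 scale in the adaxial L1 than in all layers (SE 0.54, edgeR adjusted p = 0.00206, 18 libraries), with each ligule library of the adaxial L1 above all blade and sheath libraries there and full overlap in all layers.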

How the results depend on the processing

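The number of members called, in either direction, depended on the filter and the tool, mostly through PIN1b, PIN1c, PIN1d and PIN5c. PIN1d was called in 7 of 17 alternatives for ligule against blade of all layers. For ligule against sheath of the adaxial L1 it was also called in 7 of 17. Main counts were 3, 2 and 2 for the ligule of all layers against the mean of both regions, the blade and the sheath. With limma on log2(FPKM + 1) or log2(FPKM + 0.1) each was 1, and unfiltered limma gave 1 against the sheath. In a fit of all 24 libraries the counts against blade and sheath were 1 and 0. In the adaxial L1 the 3 main counts were 2 each. With no filter they were 5, 5 and 5, as in 1 fit of all libraries (5, 5 and 5). Calls over all genes rose as well. The main tests called 1451, 1216 and 1158 of 18761 genes. With no filter these were 2317, 1886 and 1872 of 29014, and in the fit of all libraries 3858, 3495 and 3558 of 22843. DESeq2 gave 4 against the mean and 5 against the sheath (2425 and 2254 of 20972 genes), and limma gave 1 against the sheath in each of its 3 forms. Blade against sheath there went from 0 to 1 with DESeq2, no filter or all libraries. The count for the difference between ligule effects, 1 in the main test, was 2 with DESeq2, 3 with no filter and 2 with all libraries. The layer comparison of the sheath went from 1 to 2 with DESeq2, no filter, limma on log2(FPKM + 1) and all libraries, and that of the ligule from 0 to 1 with no filter.

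With 1 library left out, the counts ran from 2 to 3 against the mean, 1 to 3 against the blade and 1 to 3 against the sheath in all layers. In the adaxial L1 they ran from 3 to 5, 2 to 3 and 1 to 4, where members can enter through the weaker filter of a group of 2 (by construction of the filter). They ran from 0 to 1 for blade against sheath of the adaxial L1, from 1 to 2 for the difference between ligule effects, and from 0 to 1 and from 1 to 2 for the layers of the ligule and sheath. The P6 count was 0 in all settings run (edgeR variants, DESeq2 and limma), with 1 member at an unadjusted p below 0.05.

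Outside blade and ligule of all layers, same-numbered libraries did not all run alike. Their deviations correlated at -0.448 to 0.267 for pairs with the sheath of all layers. In the adaxial L1 the correlations were -0.0534 to 0.0441 and in P6 -0.168 to 0.0398. Sheath replicates 3 and 4 of all layers ran with libraries of the other number. Ligule 3 and sheath 4 correlated at 0.478, and ligule 4 and sheath 3 at 0.471. Blade 3 and sheath 4 correlated at 0.402, and blade 4 and sheath 3 at 0.311. Sheath replicate 5 ran with its own number (0.264 with the ligule, 0.267 with the blade). The cause was not tested. With the replicate number as a block, the counts were 1 for ligule against blade of all layers and 1 for ligule against sheath of the adaxial L1 (PIN1d at 0.79, adjusted p = 0.0752, and 1.43, adjusted p = 0.0606). Other member counts moved by less than 1.5 times. No paired analysis was possible for the layer comparisons because their groups share 1 replicate number.

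Some values changed sign, all of them uncalled. PIN1a in the ligule of all layers against the mean was 0.00127 with no filter, 0.03 with limma in each form (0.0339, 0.0331 and 0.0339), and -0.51 to 0.32 with a library left out. With a library left out it ran from -0.68 to 0.16 against the blade, -0.35 to 0.58 against the sheath and -0.37 to 0.45 for the layers of the ligule. PIN1b was -0.0699, -0.0967 and -0.0699 with limma for the layers of the blade (0.59 in the main test) and -0.62 to 0.99 with a library left out, lowest without blade replicate 2 of the adaxial L1, and -0.36 to 0.34 for ligule against blade of all layers. PIN1c ran from -1.96 to 0.33 for the layers of the ligule, PIN1d from -0.58 to 0.06 for blade against sheath of the adaxial L1. PIN5c for blade against sheath of all layers was 1.83 (SE 2.32) in the main test, from a single count, and -0.0373 with DESeq2. For spi1 the values were -0.376 with limma on log2(FPKM + 0.1) and -1.33 to 0.95 with a library left out for ligule against sheath of the adaxial L1, -2.28 to 0.0032 against the mean there, and -0.0568 to 0.18 in all layers. The causes were not tested. Depth limits PIN5a, bif2, PIN1c, PIN5c and spi1, where a count of 0 allows up to 0.806 CPM by counting error alone in ligule replicate 2 of the adaxial L1.

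Counts over all genes also moved by more than 1.5 times. The ligule of all layers against the mean gave 1014 genes and 695 to 1890 under other tools, filters and fits, against the blade 1054 and 731 to 1984, and against the sheath 619 and 352 to 1214. For the adaxial L1 these were 1451 (1138 to 3858), 1216 (957 to 3495) and 1158 (913 to 3558). Blade against sheath gave 350 (166 to 827) in all layers and 367 (277 to 1786) in the adaxial L1, P6 gave 1 (0 to 482) and the difference of ligule effects 506 (396 to 1029). With 1 library left out, these counts ran, in the same order, from 639 to 1223, 598 to 1600 and 374 to 578 in all layers, from 826 to 1438, 706 to 1224 and 640 to 1322 in the adaxial L1, from 113 to 355 and 201 to 397 for blade against sheath, from 0 to 58 in P6 and from 338 to 562. On the FPKM scale (limma on log2(FPKM + 1)) the median log2 difference of all genes between the layers moved to -0.31 from -0.08 (blade), to -0.33 from -0.15 (ligule) and to -0.26 from -0.09 (sheath). The share of called genes that were higher in the adaxial L1 moved there from 42.9% to 18.8%, 29.5% to 17% and 34.5% to 21.6%, and for ligule against blade of the adaxial L1 from 34.8% to 45.8%.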

Other observations

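Other auxin transport and synthesis genes had patterns of their own. PIN8, another PIN gene, had 190, 216 and 81 counts in blade, ligule and sheath of all layers and 278 and 394 in P6 wild type and lg1-R, but 0 in all 9 libraries of the adaxial L1. PIN10a had 44 counts in the sheath of the adaxial L1, all in replicate 2 (0 without it), 12 in the sheath of all layers and at most 2 in any other group. PIN9 had 1 count in all. The ABC transporter gene br2 was present in every group, from 46.8 ± 3.87 CPM in P6 wild type to 94.3 ± 25.7 CPM in the ligule of the adaxial L1, and was not called in either ligule comparison (log2 fold change 0.43, SE 0.34, adjusted p = 0.603 in all layers and 0.32, SE 0.29, adjusted p = 0.614 in the adaxial L1, edgeR). The level of Yucca6 in all layers was 2.74 ± 0.335 CPM for the ligule, 4.48 ± 0.262 for the blade and 5.95 ± 2.33 for the sheath (-0.90, SE 0.30, edgeR adjusted p = 0.131).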
